A study of Homo sapiens with 12 samples.

Results

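This report describes 10 genes of the integrated stress response, ATF4, ATF5, ATF3, DDIT3, CEBPB, ASNS, CHAC1, TRIB3, DDIT4 and SESN2, in HK-2 cells exposed to a compound called Ota. They were chosen by name, and every probe set that the platform annotation assigns to exactly 1 of these symbols was taken. That gave 18 of the 54675 probe sets of the array, of which 14 passed a filter on low values; the other 4 belong to ATF5 (2), ATF3 (1) and ASNS (1). All 10 genes were among the 10729 genes tested, each represented by whichever of its probe sets was brightest on average over the 12 arrays. HK-2 is an immortalized epithelial line derived from the proximal tubule of the human kidney. Cultures were exposed near confluence for 72 h or 24 h to Ota, at what the labels term a high dose, or for the same times to the control vehicle. Each of these 4 groups held 3 arrays. The series was made to look for expression signatures of toxicity. Neither a concentration nor a longer name of Ota is stated. Arrays are labelled as biological replicates, but separate cultures are not described, and the p-values then reflect the spread between these samples only, which may be technical.

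The integrated stress response is a shared answer to amino acid shortage, unfolded protein in the endoplasmic reticulum (ER), haem shortage, mitochondrial stress and double-stranded RNA. Sensor kinases phosphorylate the initiation factor eIF2, which lowers translation in general while the transcription factor ATF4 is translated more, because of short open reading frames upstream of its coding sequence. ATF4 and its dimer partners then switch on genes for amino acid supply and stress control, among them DDIT3, which encodes the factor CHOP. Much of this control is exerted on protein, so transcript levels on an array show only part of it. In kidney tubule cells the pathway is known from ER stress and toxic injury.

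ATF4 and its C/EBP-family partners bind a composite element, the C/EBP-ATF response element (CARE). Its core was searched as TGATGNAA on both strands of RefSeq promoter windows (GRCh38.p14), each reaching from 250 bases before to 50 bases after an annotated start. The 10 genes had 19 windows, and 3 of the 10 genes held a match, in 1 window each. Among all 27305 genes with a RefSeq promoter window, 4.46% held one. Those 3 windows are shown because they match the core of the CARE, although ATF3 and ASNS rose at 24 h while ATF4 fell. They are printed 5′ to 3′ along the gene, and capitals mark the match.
ATF3, chr1:212565157-212565456, strand plus: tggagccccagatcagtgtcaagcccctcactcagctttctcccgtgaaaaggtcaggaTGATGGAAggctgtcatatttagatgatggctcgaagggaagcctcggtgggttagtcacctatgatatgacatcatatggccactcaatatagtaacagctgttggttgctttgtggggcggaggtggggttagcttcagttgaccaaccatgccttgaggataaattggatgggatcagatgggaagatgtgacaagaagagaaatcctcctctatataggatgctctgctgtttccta
ASNS, chr7:97872359-97872658, strand minus: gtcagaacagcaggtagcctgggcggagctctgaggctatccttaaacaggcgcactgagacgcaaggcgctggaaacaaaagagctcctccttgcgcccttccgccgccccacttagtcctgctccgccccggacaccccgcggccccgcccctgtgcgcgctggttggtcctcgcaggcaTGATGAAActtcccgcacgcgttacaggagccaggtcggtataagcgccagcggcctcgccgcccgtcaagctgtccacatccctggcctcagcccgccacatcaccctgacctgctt
CHAC1, chr15:40953221-40953520, strand plus: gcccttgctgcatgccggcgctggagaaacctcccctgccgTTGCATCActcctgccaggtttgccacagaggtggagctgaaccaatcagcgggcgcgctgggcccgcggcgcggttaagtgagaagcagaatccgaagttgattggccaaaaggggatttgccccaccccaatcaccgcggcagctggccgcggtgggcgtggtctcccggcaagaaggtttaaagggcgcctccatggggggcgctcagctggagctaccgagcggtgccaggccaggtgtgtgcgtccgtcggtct
The match lay at bases -191 to -184 from the start in ATF3 (TGATGGAA), at -68 to -61 in ASNS (TGATGAAA) and at -209 to -202 in CHAC1 (TTGCATCA, the reverse strand). The second annotated start of ATF3 and that of ASNS held none. A match is a description of letters and not a bound site. Each motif was searched as a fixed pattern, so a variant that differs by a base was not counted. The DDIT3 windows held such a variant of the ER stress element, with a different last base. Absence of a motif here therefore means absence of the exact pattern only. Neither TGACGTNA, the core of a cyclic AMP response element (3.63% of all genes), nor the ER stress element (0.0916%) occurred in the 19 windows, so no match overlapped another motif.

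Levels are on the log2 scale, as the authors' GCRMA normalization gave them for each probe set. A value near 4 or below was treated as close to background, and 4 on at least 3 of the 12 arrays was the level needed for testing. A gene is said to have risen or fallen where limma's Benjamini-Hochberg adjusted p over all 10729 genes was under 0.05. Fold changes are log2 differences ± SE from 1 limma fit of all 12 arrays. With 3 arrays a group, the SE of a difference between 2 groups had a median of 0.21. Arrays of the treatments also differed as a whole. The median of the tested genes was 7.68 ± 0.05 on Ota arrays and 7.96 ± 0.02 on control arrays at 72 h, and 7.40 ± 0.16 and 7.97 ± 0.05 at 24 h (SD, n = 3 each). The bacterial poly-A control transcripts that are commonly spiked into the RNA were brighter on Ota arrays, with a difference of 0.89 at 72 h and of 1.85 at 24 h (two-sided exact permutation test, p = 0.1 for each, the smallest that 3 against 3 arrays allow). Hybridization controls were brighter with Ota too, by 0.42 at 72 h and 0.93 at 24 h, as was 18S ribosomal RNA, by 1.34 and 1.58. The 3' minus 5' difference of ACTB, a sign of RNA integrity, was 1.97 ± 0.33 on Ota arrays and 1.39 ± 0.15 on control arrays at 72 h, without overlap, and 1.23 ± 0.15 and 1.18 ± 0.19 at 24 h (SD, n = 3 each). That of GAPDH overlapped at both times, at -0.02 ± 0.07 and -0.06 ± 0.01 at 72 h and -0.03 ± 0.03 and -0.06 ± 0.01 at 24 h (SD, n = 3 each). Between control arrays of 72 h and 24 h the spike-in mean differed little, at 8.02 ± 0.03 and 7.98 ± 0.19 (SD, n = 3 each). These array-wide differences move with Ota, and their source, such as fewer cells or less RNA per cell, cannot be told from these samples. Their part in the results was not tested, and results under other scalings of the arrays are given below. Of 16 proximal tubule markers PAX8, SLC4A4, KRT8 and KRT18 passed the filter, while LRP2, CUBN, AQP1, SLC34A1, SLC5A2, SLC22A6, SLC22A8, ANPEP and MME stayed under 4 on all arrays. The mean level of the 14 on the array was 4.66 to 5.00 with Ota and 5.05 to 5.10 in controls at 72 h. At 24 h it was 4.69 to 5.00 and 5.08 to 5.15. Of the 4 that passed, 0 rose, and 2 fell at 72 h and 3 at 24 h, where 35.2% and 40.5% of all genes fell. Of markers of other cells, 3 of 8 passed for fibroblasts (COL1A1, DCN and LUM), 1 of 8 for endothelium (ESAM) and 1 of 8 for leukocytes. The fibroblast share was not below that of the tubule list, so these counts do not set the cells apart from fibroblasts. PTPRC, the pan-leukocyte marker, did not exceed 3.08. The mean level of the leukocyte list was 3.11 to 3.21 on Ota arrays and 2.42 to 2.48 on control arrays at 72 h, and 3.10 to 3.17 and 2.41 to 2.44 at 24 h. It covers the 6 listed genes on the array, and FCER1G alone differed by 4.08 at 72 h and 3.89 at 24 h. FCER1G passed the filter through its Ota arrays, where it was high, so this difference was built into its selection. The mean level of the fibroblast list was 4.94 to 5.13 and 4.65 to 4.77 at 72 h, and 5.12 to 5.35 and 5.25 to 5.31 at 24 h.

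At 72 h, Ota cells carried less of 8 of the 10 transcripts than control cells, and none was higher. At 24 h the genes split: ATF3 and ASNS rose, while ATF4, ATF5, DDIT3, CEBPB, TRIB3 and DDIT4 fell. Control cells themselves changed with time. Between 24 h and 72 h control cells raised 9 of the 10 genes, ATF3 and DDIT3 by 5.29 and 5.02. Over all tested genes, 24.8% rose and 35.2% fell with Ota at 72 h, and 20.8% rose and 40.5% fell at 24 h. With 6 of 10 fallen and 2 risen, the count at 24 h is near that background. CHAC1 passed the filter only through the control arrays of 72 h, so its fall at 72 h and its rise in controls were built into its selection. Without it, 7 of 9 genes fell and 0 rose at 72 h, at a median of -1.95 against -0.11 for all genes. In control cells 12.2% of genes rose and 13.3% fell from 24 h to 72 h, against 8 and 0 of these 9 genes. Array values at 72 h did not overlap for 8 genes, all lower with Ota (41.5% of all genes lower, 32.2% higher), and at 24 h for 5 lower and 3 higher genes (41.5% and 24.1%). Control arrays of 72 h lay above those of 24 h for all 10 genes, where 26.4% of all genes lay wholly above and 27.1% below.

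**Figure D1:**
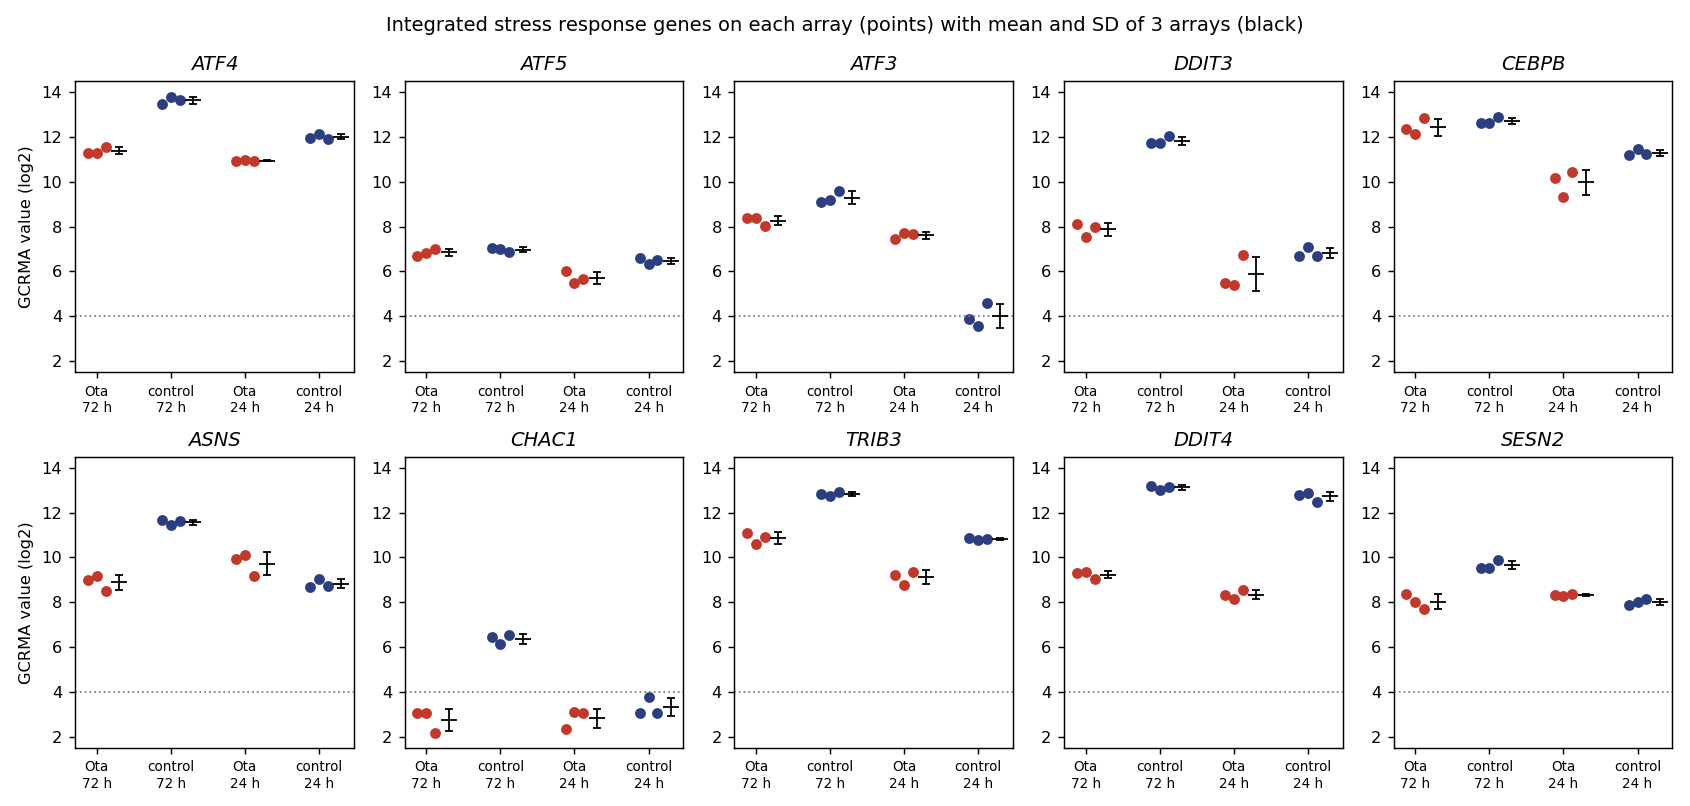
Log2 GCRMA value (vertical axis) of each gene on each of 3 arrays (points) in Ota and control cells at 72 h and 24 h, with the mean and SD of the 3 arrays in black; the dotted line marks 4, the filter level. The control arrays of 72 h stand highest in most panels, and CHAC1 exceeds 4 on those 3 arrays alone.

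ATF4 encodes the basic leucine zipper activator at the centre of the pathway. At 72 h it measured 11.27, 11.30 and 11.56 on the Ota arrays, against 13.47, 13.77 and 13.67 on the control arrays. At 24 h it measured 10.93, 10.95 and 10.95 with Ota, against 11.96, 12.13 and 11.93 in controls. The Ota arrays lay below the controls at both times without overlap, and even at 72 h below the controls of 24 h. ATF4 fell by 2.26 ± 0.14 at 72 h (limma adjusted p = 1.4e-07), which is 4.79-fold lower, and it was lower at 24 h too (-1.06 ± 0.14, adjusted p = 3.7e-05). The effect at 72 h minus that at 24 h was -1.20 ± 0.19 (limma, test of the difference, adjusted p = 4.4e-04), a call that was lost with the spike-in scaling (-0.24). In control cells ATF4 rose by 1.63 ± 0.14 from 24 h to 72 h (adjusted p = 1.2e-05), and in Ota cells by 0.43 ± 0.14 (adjusted p = 0.0165, or 0.0617 without Ota replicate 3 of 72 h; 0.16 and not passed with centring).

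ATF5, a relative of ATF4 that is also controlled through upstream open reading frames, differed little at 72 h. It measured 6.68, 6.83 and 7.01 with Ota at 72 h, against 7.06, 6.98 and 6.86 in controls. The 24 h arrays gave 6.00, 5.47 and 5.64 with Ota, against 6.58, 6.31 and 6.50 in controls. The groups overlapped at 72 h (-0.13 ± 0.16, limma adjusted p = 0.52) and were apart at 24 h, where ATF5 fell (-0.76 ± 0.16, adjusted p = 0.00169). That call was lost after quantile normalization (-0.26), after centring (-0.20) and with the mean over probe sets (-0.22). It rose in Ota cells from 24 h to 72 h by 1.14 ± 0.16 (limma adjusted p = 1.1e-04) and in control cells by 0.51 ± 0.16 (adjusted p = 0.0393), a call that ended when any of the 6 control arrays was left out (0.43 to 0.57, adjusted p up to 0.13). The difference between the effects of 72 h and 24 h (0.63 ± 0.23, limma adjusted p = 0.0401) also ended without any of 9 of the 12 arrays (0.51 to 0.78 over all 12), after quantile normalization (0.27), centring (0.35) or averaging over probe sets (0.09), with array weights (0.33) and with a robust variance trend. These 9 were Ota replicates 2 and 3 and control replicates 1 and 3 of 24 h, and Ota replicates 2 and 3 and all 3 controls of 72 h. A further ATF5 probe set over the filter lay between 4.78 and 5.69, and differed by -0.13 ± 0.18 at 72 h and 0.32 ± 0.18 at 24 h (limma on all probe sets, adjusted p = 0.639 and 0.18).

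ATF3, a stress-inducible factor that ATF4 activates and that can repress its targets, was the one of the 10 genes most raised by Ota at 24 h. It measured 7.44, 7.72 and 7.69 there, against 3.86, 3.56 and 4.60 in control cells, whose arrays lay around the filter level, so that the size of the change is uncertain. ATF3 rose by 3.61 ± 0.25 (limma adjusted p = 2.7e-07). At 72 h the order had turned: Ota arrays measured 8.37, 8.38 and 8.02, against 9.10, 9.17 and 9.61 on control arrays, and no values overlapped. The gene fell by 1.03 ± 0.25 (limma adjusted p = 0.00334), and the 2 effects differed by -4.64 ± 0.35 (adjusted p = 6.3e-06). In Ota cells ATF3 was 0.65 ± 0.25 higher at 72 h than at 24 h (limma adjusted p = 0.0397, a call lost with quantile normalization or centring and without any of 7 of the 12 arrays). Those 7 were all 3 Ota arrays and control replicate 1 of 24 h, and Ota replicates 1 and 2 and control replicate 2 of 72 h (0.56 to 0.77 over all 12, adjusted p up to 0.118). Control cells changed far more, by 5.29 ± 0.25 (limma adjusted p = 4.1e-07). Since the controls of 24 h lay around the filter level, the size of this rise is uncertain as well. Another ATF3 probe set had the same directions with smaller sizes, -1.15 ± 0.40 at 72 h and 1.34 ± 0.40 at 24 h (limma on all probe sets, adjusted p = 0.0753 and 0.0299), and its control replicate 2 of 24 h, at 4.84, stood near the lowest Ota array, at 4.87.

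DDIT3 encodes CHOP, a factor tied to cell death under lasting ER stress. In control cells it differed widely between the times. At 72 h it measured 8.11, 7.54 and 7.96 on Ota arrays, against 11.74, 11.73 and 12.04 on control arrays. At 24 h the values were 5.50, 5.37 and 6.74 with Ota, against 6.68, 7.08 and 6.69 in controls. All Ota arrays lay below the controls at 72 h, and at 24 h Ota replicate 3 lay inside the range of the controls. DDIT3 fell by 3.97 ± 0.31 at 72 h (limma adjusted p = 9.0e-07), 15.7-fold lower than in controls. Its fall at 24 h (-0.95 ± 0.31, limma adjusted p = 0.0197) did not pass without Ota replicate 1 or 2 or control replicate 2 of 24 h (-0.77, -0.70 and -0.82, adjusted p up to 0.0807). It did not pass when only the arrays of 24 h were fitted (adjusted p = 0.0684), after quantile normalization (-0.48, adjusted p = 0.16) or after centring of the arrays (-0.39, adjusted p = 0.229). The effect at 72 h minus that at 24 h was -3.02 ± 0.44 (limma adjusted p = 2.4e-04). Within Ota cells DDIT3 did not fall with time: it rose by 2.00 ± 0.31 (limma adjusted p = 2.0e-04), and by 1.66 to 2.93 under the other scalings. Control cells gained 5.02 ± 0.31 (adjusted p = 1.9e-06).

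CEBPB, which encodes the C/EBP beta partner of ATF4 and CHOP, rose with time under both treatments. It measured 12.34, 12.12 and 12.84 with Ota at 72 h, against 12.63, 12.63 and 12.88 in controls, with overlap. At 24 h it measured 10.17, 9.34 and 10.43 with Ota, against 11.21, 11.44 and 11.24 in controls, without overlap. It fell with Ota at 24 h (-1.32 ± 0.26, limma adjusted p = 9.9e-04), and it did not pass at 72 h (-0.28 ± 0.26, adjusted p = 0.378). From 24 h to 72 h CEBPB rose by 2.45 ± 0.26 in Ota cells (limma adjusted p = 1.4e-05) and by 1.41 ± 0.26 in control cells (adjusted p = 0.00224). The difference of the effects (1.04 ± 0.37, limma adjusted p = 0.0361) did not pass with centring or without the filter, nor without any of 7 of the 12 arrays (0.72 to 1.26 over all 12, adjusted p up to 0.0847). They were all 3 control arrays of 24 h, and Ota replicates 1 and 3 and control replicates 1 and 2 of 72 h.

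**Figure D2:**
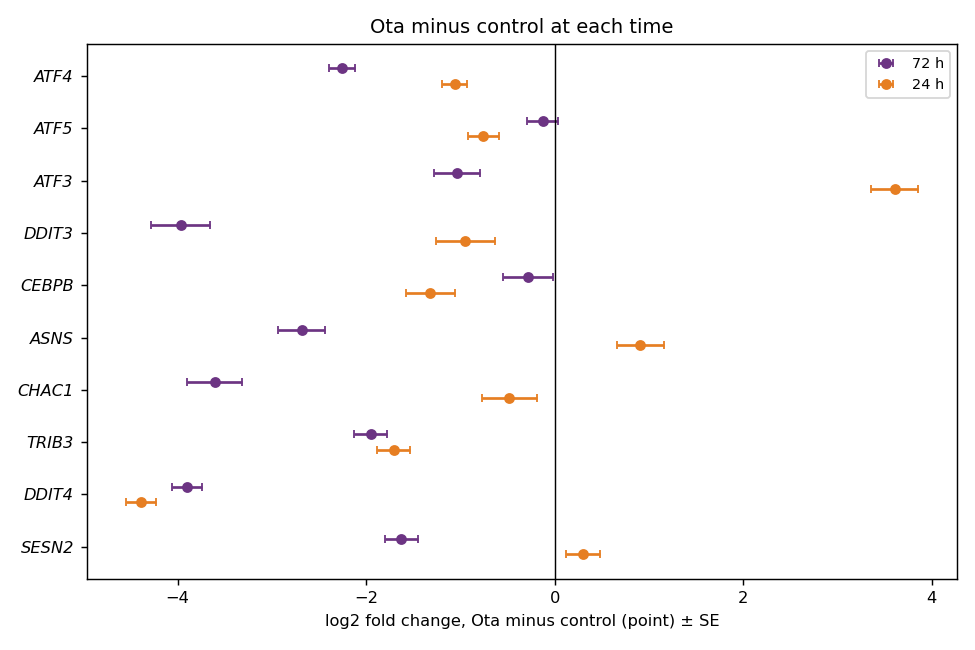
Log2 fold change of Ota minus control (horizontal axis) at 72 h (purple) and 24 h (orange) for each gene, as the limma estimate (point) ± SE (bar). At 72 h every point lies below 0, with ATF5 and CEBPB nearest to it, while at 24 h ATF3, ASNS and SESN2 lie above 0.

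ASNS and CHAC1 encode enzymes. ASNS encodes asparagine synthetase, a widely used readout of ATF4 activity, and its values opposed those of ATF4 at 24 h. At 72 h it measured 9.00, 9.17 and 8.49 with Ota, against 11.66, 11.43 and 11.61 in controls. At 24 h it measured 9.92, 10.11 and 9.15 with Ota, against 8.68, 9.05 and 8.72 in controls. Ota arrays were lowest at 72 h and highest at 24 h within their time, without overlap. ASNS fell by 2.68 ± 0.25 at 72 h (limma adjusted p = 3.0e-06) and rose by 0.91 ± 0.25 at 24 h (adjusted p = 0.00754), though it lay at -0.94 when arrays were scaled to the spike-ins. The effects differed by -3.59 ± 0.35 (limma adjusted p = 2.0e-05). It was the gene that fell in Ota cells over time (-0.84 ± 0.25, limma adjusted p = 0.012; 0.0531 without Ota replicate 3 of 72 h, and 0.08 with the spike-in scaling). In control cells it rose by 2.75 ± 0.25 (adjusted p = 2.1e-05).

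CHAC1 encodes an enzyme that cleaves glutathione and is a target of ATF4. Its probe set was over 4 on the 3 control arrays of 72 h and on no other array. It passed the filter only through them, so a difference for that group was built into its selection. It measured 3.03, 3.04 and 2.17 with Ota at 72 h, against 6.43, 6.12 and 6.52 in controls. At 24 h the levels were 2.33, 3.10 and 3.03 with Ota, against 3.07, 3.77 and 3.07 in controls, all near background. The log2 difference at 72 h was -3.61 ± 0.29 (limma adjusted p = 1.1e-06), and that between control cells at 72 h and 24 h was 3.05 ± 0.29 (adjusted p = 2.8e-05). At 24 h CHAC1 did not pass (-0.48 ± 0.29, limma adjusted p = 0.172), nor did Ota cells between the times (-0.08 ± 0.29, adjusted p = 0.842). The effects of 72 h and 24 h differed by -3.13 ± 0.41 (limma adjusted p = 1.2e-04).

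TRIB3, DDIT4 and SESN2 carry the response into feedback and growth control. TRIB3 encodes a pseudokinase that binds ATF4 and AKT. It measured 11.11, 10.59 and 10.93 with Ota at 72 h, against 12.83, 12.73 and 12.93 in controls. The arrays of 24 h measured 9.24, 8.78 and 9.36 with Ota, against 10.87, 10.80 and 10.84 in controls. The groups were apart at both times. TRIB3 fell at both, with -1.95 ± 0.18 at 72 h and -1.71 ± 0.18 at 24 h (limma adjusted p = 2.7e-06 and 7.2e-06), and the difference between these did not pass (-0.24 ± 0.25, adjusted p = 0.445). Over time it rose in Ota cells by 1.75 ± 0.18 and in control cells by 2.00 ± 0.18 (limma adjusted p = 9.8e-06 and 1.9e-05). Its other probe set gave -2.38 ± 0.17 at 72 h and -1.95 ± 0.17 at 24 h.

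DDIT4 encodes REDD1, an inhibitor of the growth kinase mTORC1, and was the lowest of the 10 relative to its controls at 24 h. It measured 9.30, 9.34 and 9.04 with Ota at 72 h, against 13.21, 13.01 and 13.16 in controls. The arrays of 24 h gave 8.34, 8.14 and 8.53 with Ota, against 12.80, 12.89 and 12.49 in controls. The 6 control arrays kept within 12.49 to 13.21 and all Ota arrays lay under 9.4. It fell by 3.90 ± 0.16 at 72 h (limma adjusted p = 9.8e-09) and stood at -4.39 ± 0.16 at 24 h (adjusted p = 4.3e-09), which is 15-fold and 20.9-fold lower. The difference between the effects did not pass (0.49 ± 0.23, limma adjusted p = 0.0934). DDIT4 was the gene for which the change of the control cells with time did not pass (0.40 ± 0.16, adjusted p = 0.0885), while it rose in Ota cells by 0.89 ± 0.16 (adjusted p = 5.4e-04).

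SESN2 encodes sestrin 2, a leucine sensor that restrains mTORC1, and its 2 probe sets disagreed at 24 h. The brighter one measured 8.38, 7.99 and 7.71 with Ota at 72 h, against 9.55, 9.54 and 9.88 in controls. At 24 h it measured 8.32, 8.29 and 8.37 with Ota, against 7.89, 8.03 and 8.16 in controls. It fell at 72 h (-1.63 ± 0.18, limma adjusted p = 1.0e-05). At 24 h it did not pass (0.30 ± 0.18, adjusted p = 0.161), although the Ota arrays lay above the controls without overlap. With the arrays centred it was higher by 0.86 (adjusted p = 0.000904), and with the spike-in scaling it lay at -1.55. The dimmer probe set measured 4.08, 3.04 and 4.86 with Ota at 24 h, against 5.53, 5.54 and 5.35 in controls, a difference of -1.48 ± 0.37 (limma on all probe sets, adjusted p = 0.0153). At 72 h it lay lower too (-2.32 ± 0.37, adjusted p = 0.00159). The direction for SESN2 at 24 h is uncertain. For the brighter probe set the effects differed by -1.93 ± 0.25 (limma adjusted p = 1.1e-04), control cells gained 1.63 ± 0.18 from 24 h to 72 h (adjusted p = 6.3e-05), and Ota cells did not pass (-0.30 ± 0.18, adjusted p = 0.168).

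Across the 10 genes, the effect of Ota was lower at 72 h than at 24 h for 6 (ATF4, ATF3, DDIT3, ASNS, CHAC1 and SESN2; 5 of 9 without CHAC1) and higher for 2 (ATF5 and CEBPB), against 19.9% and 29.6% of all genes. The change from 24 h to 72 h passed upwards for 7 genes and downwards for 1 in Ota cells, where 37% of all genes rose and 23.3% fell. The Ota arrays of 72 h lay wholly above those of 24 h for 7 genes and below them for 0, against 37.4% and 24.7% of all genes. The comparison of Ota with control at 72 h and that of control cells between the times share the control arrays of 72 h, so their sizes are tied. Ota cells of 72 h were therefore also set beside the control cells of 24 h. As deposited, TRIB3, ASNS and SESN2 lay there at the level of these earlier controls, with differences of the means of 0.04, 0.07 and 0.0038 and overlapping arrays. ATF3, CEBPB, DDIT3 and ATF5 lay above them by 4.25, 1.13, 1.05 and 0.38, and DDIT4 and ATF4 below them with differences of -3.50 and -0.63, each without overlap. CHAC1 was near background in both groups. Non-overlap upwards held for 29.4% and downwards for 39.6% of all genes in that comparison. It was not repeated under other scalings, so these positions hold for the values as deposited only. The spike-in mean was 8.91 on the Ota arrays of 72 h and 7.98 on the control arrays of 24 h.

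**Figure D3:**
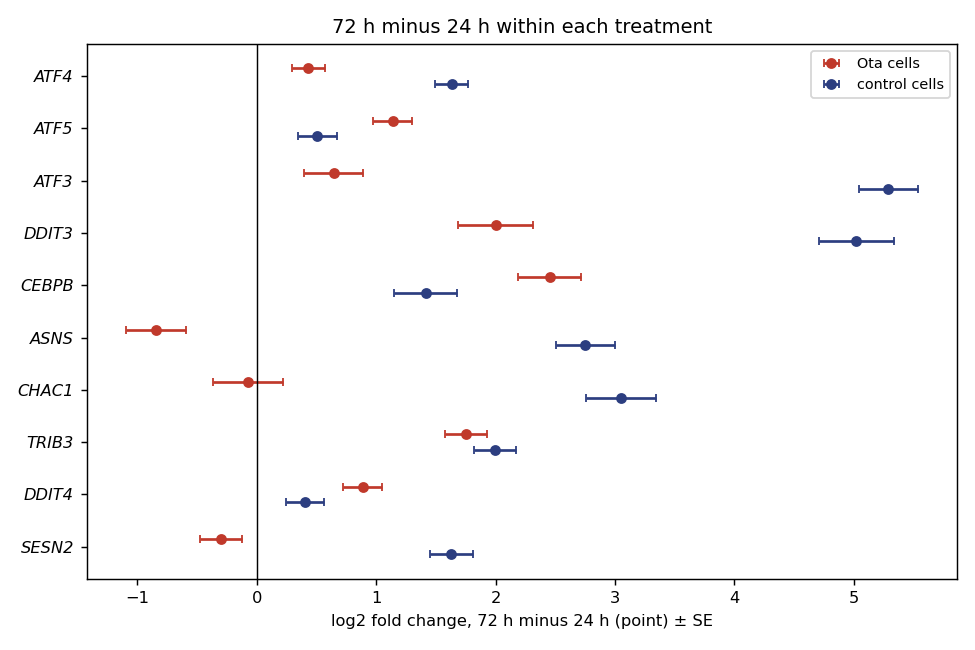
Log2 fold change from 24 h to 72 h (horizontal axis) in Ota cells (red) and control cells (blue) for each gene, as the limma estimate (point) ± SE (bar). Control cells gained more than Ota cells in ATF4, ATF3, DDIT3, ASNS, CHAC1 and SESN2, and less in ATF5 and CEBPB.

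The genes were compared with all others by the root mean square difference of their values over the 12 arrays, each gene centred on its own mean, on the log2 scale. The gene most like ATF4 was SARS1, which encodes seryl-tRNA synthetase, at 0.218, followed by the noncoding ATP6AP1-DT at 0.224 and the matrix metalloproteinase gene MMP16 at 0.263. The median over all genes was 1.09. SARS1 averaged 10.07 with Ota and 12.47 in controls at 72 h, and 9.59 and 10.67 at 24 h. DDIT3 was most like SLC7A11, the cystine transporter gene (0.507), SDF2L1, which encodes an ER protein (0.619), and CADPS2 (0.745), against a median of 2.29. For ASNS these were the noncoding SNHG32 (0.367), the ankyrin gene ANK2 (0.398) and PDIA4, which encodes an ER disulphide isomerase (0.414), against a median of 1.30. All these genes stood highest on the control arrays of 72 h. Among the 10 genes the smallest differences were those of ATF4 with TRIB3 (0.531) and ASNS with SESN2 (0.534), and the largest was that of ATF3 with DDIT4 (3.24).

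Upstream of ATF4, the shares of changed genes may be set beside those of all genes, 24.8% risen and 35.2% fallen at 72 h and 20.8% and 40.5% at 24 h. Of 10 genes for eIF2 kinases and their activators 2 rose and 3 fell at 72 h, and 1 rose and 3 fell at 24 h. The largest changes at 72 h were those of DELE1, which relays mitochondrial stress (-2.65 ± 0.20), IMPACT, an inhibitor of the amino acid sensor GCN2 (-2.06 ± 0.29), and EIF2AK4, which encodes GCN2 itself (1.61 ± 0.21). At 24 h IMPACT (-1.21 ± 0.29) and DELE1 (-1.20 ± 0.20) fell and EIF2AK3, the gene of the ER kinase PERK, rose (0.83 ± 0.15). Of 14 genes for eIF2, its exchange factor eIF2B and the eIF2 phosphatases 2 rose and 5 fell at 72 h, and 1 rose and 9 fell at 24 h. EIF2B4, a regulatory subunit of eIF2B, fell at both times (-3.18 ± 0.31 and -3.47 ± 0.31). EIF2B2 (-1.16 ± 0.14) fell and EIF2S1, which encodes the phosphorylated subunit of eIF2, rose at 72 h (1.49 ± 0.16). PPP1R15B, which directs a phosphatase to eIF2 (-2.95 ± 0.38), and EIF2B1 (-1.67 ± 0.24) fell at 24 h, and EIF2S3 was higher (0.59 ± 0.14). With centring the kinase list had 3 risen and 2 fallen at 72 h and 4 and 1 at 24 h, and the eIF2 list 4 and 4 at 72 h and 2 and 5 at 24 h, where centring raised the share of all genes risen to 35.5% at 72 h and 43.4% at 24 h. Apart from the eIF2 list at 24 h, with more falls and fewer rises as deposited, these counts lie near the shares of all genes.

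Of 28 dimer partners and relatives of ATF4 and CHOP 8 rose and 14 fell at 72 h and 8 rose and 11 fell at 24 h, where 24.8% and 35.2% of all genes did at 72 h and 20.8% and 40.5% at 24 h. The AP-1 gene JUND fell at both times (-2.68 ± 0.38 and -4.49 ± 0.38). CREB3L2 (-2.66 ± 0.19) and CREB3 (-2.53 ± 0.35), membrane-bound relatives, fell at 72 h, where FOSL2 rose (2.14 ± 0.35, with 3 of its 4 probe sets in that direction). MAFF (2.59 ± 0.26) and CREB5 (2.50 ± 0.36) rose at 24 h. With centring 9 rose and 12 fell at 72 h, where 35.5% of all genes rose and 27.8% fell. At 24 h 11 rose and 7 fell with centring, where 43.4% of all genes rose and 26.7% fell.

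Known targets of ATF4 fell together at 72 h, as counts in each list show. Of 12 genes of amino acid and one-carbon metabolism 10 fell and 0 rose (median log2 fold change -1.42), of 9 amino acid transporters 7 and 0 (-1.56), of 11 cytosolic tRNA synthetases 8 and 0 (-1.27), and of 19 other ATF4 and CHOP targets 12 and 2 (-0.80), where the median of all genes was -0.11. Of all genes 35.2% fell and 24.8% rose. In the metabolism list the largest falls were those of CBS, a transsulphuration enzyme (-5.49 ± 0.19), ALDH1L2 (-4.80 ± 0.38) and the serine synthesis gene PSAT1 (-2.22 ± 0.17). Among transporters SLC7A11 (-3.66 ± 0.22), the glycine carrier SLC6A9 (-2.48 ± 0.28) and SLC1A4 (-2.07 ± 0.17) led. SLC6A9, and NUPR1 among the other targets, passed the filter only through the control arrays of 72 h, so their difference there was built in, and their levels elsewhere did not exceed 2.20 and 3.38. The synthetases were led by AARS1 (-3.72 ± 0.22), SARS1 (-2.40 ± 0.21) and WARS1 (-1.64 ± 0.18). EIF4EBP1, a translation repressor (-3.82 ± 0.32), INHBE, an activin subunit (-3.65 ± 0.38), and VLDLR (-3.45 ± 0.26) also fell. The glycoprotein hormone gene STC2 was 1 of the 2 that rose (3.05 ± 0.35). The medians of these 4 lists stayed negative under quantile normalization, centring and the spike-in scaling.

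At 24 h the same lists were split. The counts were 3 risen and 5 fallen for metabolism, 1 and 4 for transporters, 3 and 5 for synthetases and 5 and 5 for the other targets. These lie near the background of all genes, 20.8% risen and 40.5% fallen. BCAT1, a branched-chain aminotransferase, rose (2.37 ± 0.36), while CTH (-1.69 ± 0.48) and CBS (-1.55 ± 0.19) fell. SLC1A4 (-2.97 ± 0.17), SLC38A2 (-1.41 ± 0.17) and SLC7A1 (-1.13 ± 0.26) fell and SLC3A2 was higher (0.65 ± 0.19). WARS1 rose (1.45 ± 0.18) against falls of AARS1 (-2.18 ± 0.22) and SARS1 (-1.09 ± 0.21). STC2 (4.41 ± 0.35) and the stress cytokine gene GDF15 (1.45 ± 0.34) rose, and INHBE fell (-2.76 ± 0.38). With centring 6 metabolism genes rose and 3 fell, and so did 3 and 4 transporters, 6 and 1 synthetases, and 10 and 3 other targets, where 43.4% of all genes rose and 26.7% fell.

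Control cells raised these lists with time. From 24 h to 72 h 11 of 12 metabolism genes, 8 of 9 transporters, 10 of 11 synthetases and 15 of 19 other targets rose, and 0 fell in each list. INHBE (5.88 ± 0.38), SLC7A11 (4.71 ± 0.22), ALDH1L2 (4.53 ± 0.38) and BCAT1 (3.48 ± 0.36) were among them. Of all genes 12.2% rose and 13.3% fell. SLC6A9 and NUPR1, in the transporter and other lists, passed the filter only through the control arrays of 72 h. A difference for that group was built into their selection. Of 20 ER stress genes of the ATF6 and XBP1 arms 18 rose and 0 fell in controls (median 2.48). Under Ota 14 of these 20 fell and 1 rose at 72 h, where 35.2% of all genes fell and 24.8% rose. The falls were led by SDF2L1 (-4.42 ± 0.18), HYOU1 (-3.23 ± 0.24) and PDIA4 (-2.38 ± 0.32), with the protease gene MBTPS1 higher (0.96 ± 0.15). At 24 h 8 rose and 3 fell, where 20.8% of all genes rose and 40.5% fell. DNAJC3, an inhibitor of PERK, rose (1.20 ± 0.28). XBP1 fell (-2.02 ± 0.32), as did HSPA5, the main ER chaperone gene (-1.03 ± 0.16). For HSPA5 1 of 2 probe sets had the sign of the tested one at 72 h, and this was not counted at 24 h. With centring 15 of the 20 rose and 2 fell with Ota at 24 h, where 43.4% of all genes rose and 26.7% fell. With the spike-in scaling 17 of these 20 genes still rose in controls with time (5.37% of all genes), and 0 of them rose with Ota at 24 h (1.42% of all genes).

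**Figure D4:**
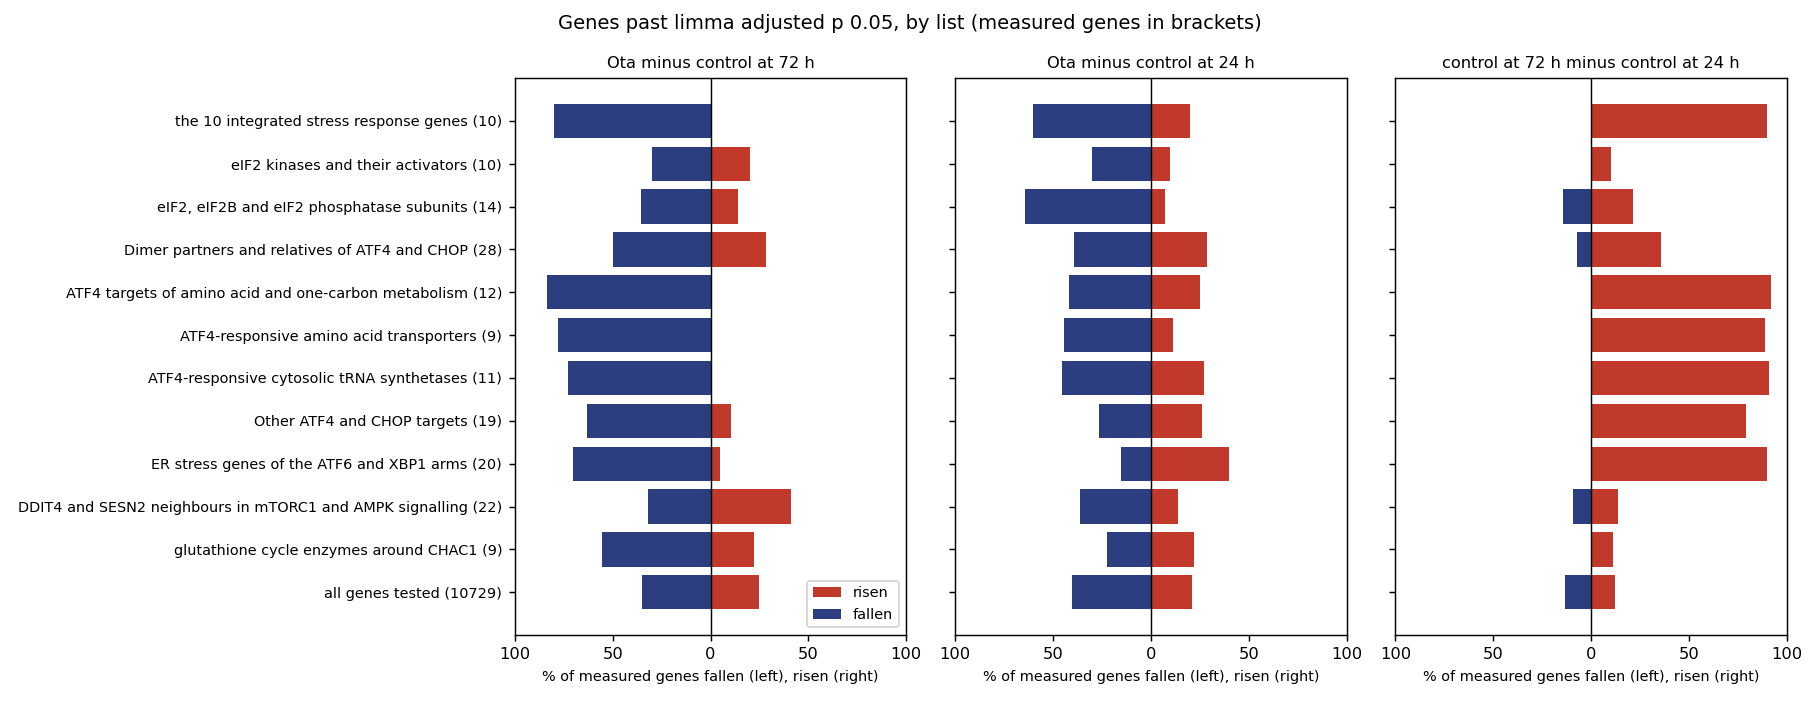
Percentage of measured genes of each list that rose (right, red) or fell (left, blue) at a limma adjusted p under 0.05, for Ota against control at 72 h and 24 h and for control cells of 72 h against 24 h; measured genes stand in brackets. Falls dominate the target lists at 72 h, and rises dominate them in control cells with time, beside 12.2% risen and 13.3% fallen among all genes.

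Around DDIT4 and SESN2, 22 genes of mTORC1 and AMPK signalling gave 9 rises and 7 falls at 72 h, and 3 rises and 8 falls at 24 h, near the shares of all genes (24.8% and 35.2%, and 20.8% and 40.5%) except for more rises at 72 h. TXNIP, which encodes a glucose-responsive inhibitor of thioredoxin, rose at 72 h (3.90 ± 0.41), but its controls were lower at 72 h than at 24 h by a larger amount (-6.02 ± 0.41). MLST8, a subunit of mTORC1, fell (-3.73 ± 0.19), as did EIF4EBP1 above. MIOS (-4.06 ± 0.25) and NPRL2 (-2.21 ± 0.15), parts of the amino acid sensing complexes, fell at 24 h, and the AMPK kinase gene STK11 rose (2.06 ± 0.28). Around CHAC1, 9 genes of the glutathione cycle gave 2 rises and 5 falls at 72 h, and 2 of each at 24 h. GCLM, a subunit of the rate-limiting enzyme of glutathione synthesis, rose at both times (2.02 ± 0.30 and 1.41 ± 0.30), GSR, which encodes glutathione reductase, rose at 24 h (0.88 ± 0.14), and GPX4 (-1.81 ± 0.25) fell at 72 h, while CHAC2 (-2.18 ± 0.46) fell at 24 h. With centring 9 rose and 6 fell in the mTORC1 list and 3 and 1 in the glutathione list at 24 h, where 43.4% of all genes rose and 26.7% fell. Across all lists 7 measured genes, such as SLC7A11 and EIF4EBP1, belong to more than 1.

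The scaling of the arrays moved sizes far more at 24 h than in control cells over time. The median of all genes shifted by 0.56 with centring, 0.20 with quantile normalization and -1.85 with the spike-in scaling at 24 h, by 0.28, 0.07 and -0.89 at 72 h, and by 0.0024, -0.0073 and -0.036 for control cells between the times. At 72 h the 8 falls stayed below 0 under each, with DDIT3 from -3.69 to -4.86 and ATF3 from -0.75 to -1.92. At 24 h ATF3 stayed above 0 (1.76 to 4.17) and DDIT4 below it (-6.24 to -3.83), whereas ASNS and SESN2 turned negative with the spike-in scaling. ATF5, at 0.15 with centring and -1.02 with the spike-in scaling at 72 h, had no settled direction there.

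**Figure D5:**
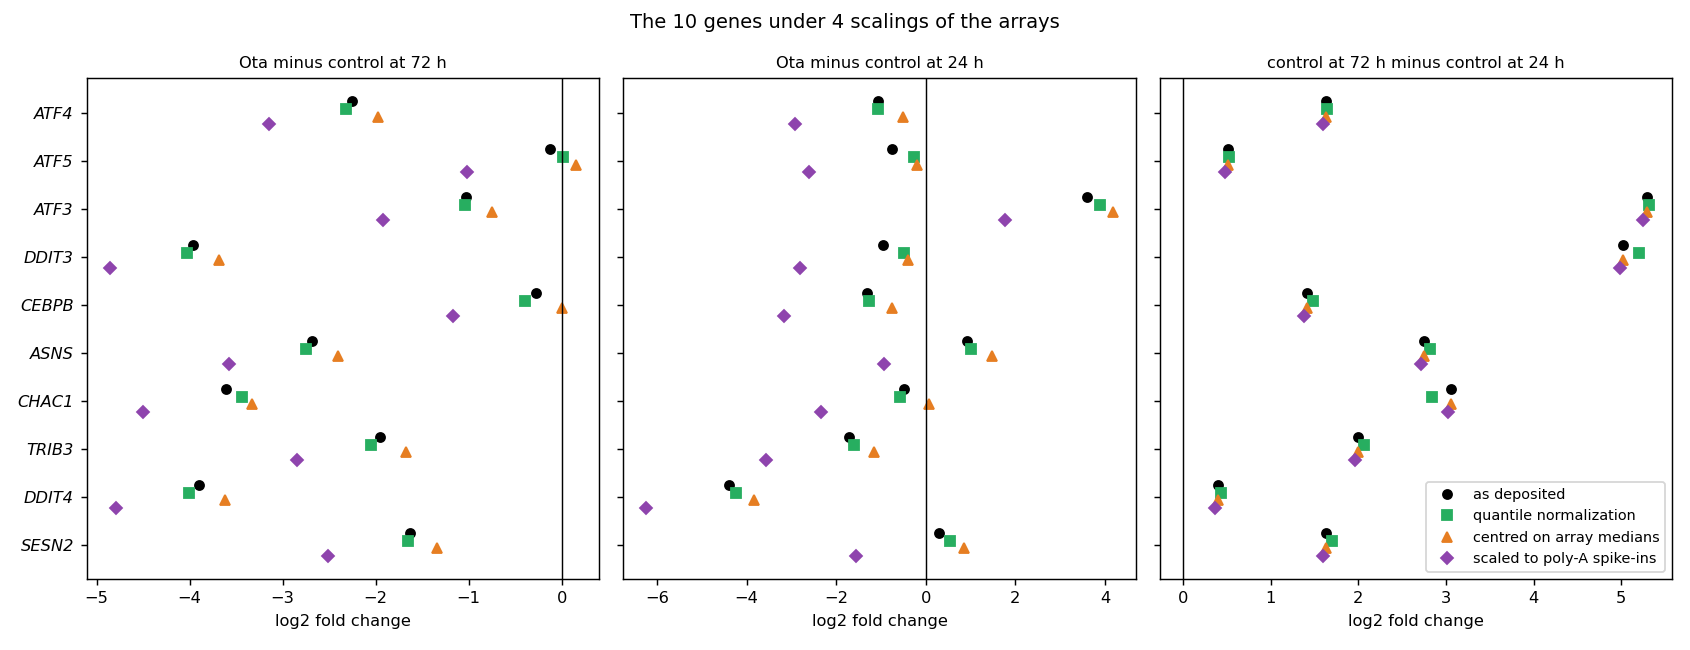
Log2 fold change (horizontal axis) of each gene for Ota against control at 72 h and 24 h and for control cells of 72 h against 24 h, with the values as deposited and under 3 other scalings of the arrays. The scalings nearly coincide for control cells over time and lie farthest apart at 24 h.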

How the data were processed

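RNA of 12 HK-2 samples was measured on Affymetrix arrays. The authors deposited log2 values for each probe set. Per the submitters' processing notes GCRMA was the tool; its version and which arrays were normalized together are not given in the sources used here. They were used as deposited. The platform annotation named 1 gene for 41097 of the 54675 probe sets, more than 1 for 1801, and left 11777 unnamed.

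Of the probe sets with 1 symbol, those above 4 on 3 or more arrays were kept, without 62 control probe sets, and each gene was represented by the one with the highest mean. A model of 4 group means was fitted to 10729 genes with limma 3.58.1 in R 4.3.3 (residual degrees of freedom 8, prior 3.56), two-sided, with Benjamini-Hochberg adjustment over all genes. Single values per array were compared by exact permutation. The 10 genes, lists and tests were chosen with earlier results of these data known. The comparison of Ota cells between the times was added after seeing the values. Named genes were the 10, from each list up to 3 with the largest change past the threshold in each Ota comparison and 1 in the other direction, and 3 genes of most similar pattern for ATF4, DDIT3 and ASNS. The fit was tested on simulated data. Promoter windows are RefSeq's.

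Equal replicate numbers were checked for pairing through deviations from the group means. At 24 h the pairs of equal number correlated weakly (r = 0.125, 0.231 and 0.271), all above those of unequal number (at most 0.017). The replicate number was therefore tried as a block, although values this small do not establish pairing. Alternatives covered scaling, filter, probe set choice, variance model, threshold and leaving out each array.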

Additional observations from a re-analysis of the deposited data

Results flagged for a closer look

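The effect of Ota differed between 72 h and 24 h, by limma's test of the difference itself, for 8 of the 10 genes. It was lower at 72 h for ATF3 (-4.64), ASNS (-3.59), CHAC1 (-3.13), DDIT3 (-3.02), SESN2 (-1.93) and ATF4 (-1.20), and higher for CEBPB (1.04) and ATF5 (0.63), all on the log2 scale. The ATF5 difference was lost with quantile normalization, centring, the mean over probe sets, array weights and a robust variance trend, and with 9 of the 12 arrays left out in turn, that of CEBPB with centring, without the filter and with 7 arrays left out in turn, and that of ATF4 with the spike-in scaling (-0.24, limma adjusted p = 0.608). That of CHAC1 was built into its selection. In ATF3 and ASNS the effect changed sign, upwards at 24 h and downwards at 72 h, and the ASNS rise at 24 h turned to -0.94 with the spike-in scaling. Groups of 3 arrays are too small for a test of outlying arrays.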

How the results depend on the processing

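No fall at 72 h and none of the rises of ATF4, ATF3, DDIT3, CEBPB, ASNS, CHAC1, TRIB3 and SESN2 in control cells lost its call or its direction under any alternative run. For CHAC1 both the fall and the rise were built into its selection. With the spike-in scaling ASNS (-0.94) and SESN2 (-1.55) reversed at 24 h, and ASNS (0.083), CHAC1 (0.85) and SESN2 (0.63) did in Ota cells between the times. The mean over probe sets put SESN2 at -0.59 at 24 h. Of the values for single genes under the alternatives 1137 kept their side of the threshold and direction, 9 that passed in neither setting changed sign, 73 lost and 15 gained the call, and 6 reversed. Risen genes at 24 h numbered 2, but 3 with quantile normalization, centring or array weights, and 1 with the spike-in scaling or a log2 fold change of at least 1. Genes with a higher effect at 72 h numbered 2, but 1 with quantile normalization, no filter, the mean over probe sets, a robust variance trend or a log2 fold change of at least 1, 0 with centring or an adjusted p under 0.01, and 3 with the spike-in scaling, where those with a lower effect numbered 5 and not 6. Genes fallen in Ota cells between the times numbered 1, but 2 with quantile normalization or centring and 0 with the spike-in scaling, only the groups compared, an adjusted p under 0.01 or a log2 fold change of at least 1; risen ones numbered 7, but 9 with the spike-in scaling, 6 with quantile normalization, no filter or only the groups compared, 5 with centring or an adjusted p under 0.01, and 4 at that fold change. Leaving out 1 array gave 0 to 2 genes with a higher effect at 72 h and 0 to 2 fallen in Ota cells. Genes fallen at 24 h numbered 4 to 9 over the alternatives. Only the groups compared cannot be fitted for the difference between effects.

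The replicate number as a block left every count as it was (2 risen and 6 fallen at 24 h, 0 and 8 at 72 h) and changed no call of the 10 genes. At 72 h pairs of equal number did not all exceed those of unequal number (r = -0.05, 0.14 and 0.19, against up to 0.08). Signal over background limits CHAC1 and the ATF3 controls of 24 h.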

Other observations

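The rank of the change separated the genes by treatment and time. DDIT4 ranked 14 of 10729 genes by p-value for Ota at 24 h and 27 at 72 h, but 3353 for control cells between the times. DDIT3 ranked 16 and ATF4 66 for control cells between the times. For Ota at 24 h DDIT3 ranked 5761.

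FCER1G, a leukocyte marker of the Fc receptor, was the one leukocyte marker of 8 listed that passed the filter. It averaged 6.66 with Ota and 2.58 in controls at 72 h, and 6.36 and 2.46 at 24 h, while TYROBP, CD14 and LYZ did not exceed 3.13. FCER1G passed the filter through its Ota arrays, so its difference was built into its selection.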
